A study of Thlaspi arvense with 6 samples.

Results

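MYB21, MYB24 and MYB57 are 3 closely related R2R3 MYB transcription factors of Arabidopsis, and the pennycress (Thlaspi arvense) loci matched to them were followed in nectaries, the glands that secrete nectar at the base of the flower. A locus here is a predicted pennycress protein, with its value summed over all assembled contigs assigned to it. The members were the loci whose most abundant contig had AT3G27810 (MYB21), AT5G40350 (MYB24) or AT3G01530 (MYB57) as its best Arabidopsis match. This rule found 2 of the 12335 loci of the contig table, Ta06372 (MYB21) and Ta09975 (MYB57), and 0 of the 16074 contigs carried the identifier of MYB24. The study's own list of loci gives Ta09766 as MYB24, whereas its contigs in the table are matched to AT5G40348, annotated as other RNA, and to AT3G27809, annotated as unknown protein. By number, AT5G40348 is close to the identifier of MYB24 and AT3G27809 to that of MYB21, and what this says of the locus was not tested. Ta09766 is therefore described beside the 2 members under its pennycress identifier, and its name as MYB24 is taken from that list. The chromosome positions and the sequences of these loci were not analysed here.

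In Arabidopsis, these MYB factors act late in flower development. Jasmonate, made under the control of gibberellin and of the auxin response factors ARF6 and ARF8, induces them in stamens and petals, where MYB21 and MYB24 drive filament elongation, anther opening and petal growth, with MYB57 as a partly redundant relative. JAZ repressors bind MYB21 and MYB24 and hold them inactive until the hormone, through its receptor COI1, triggers JAZ degradation, and bHLH factors of the MYC2 group act as partners. In tobacco, the related factor MYB305 is expressed in nectaries and activates genes for nectar proteins and for starch and flavonoid metabolism there.

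RNA was sequenced from 2 stages of hand-dissected nectaries of unmodified plants of a single pennycress cultivar, with 3 samples of each stage. Mature nectaries, which secrete nectar, came from flowers that correspond to Arabidopsis stages 14 to 15, and immature nectaries, which do not yet secrete, from stages 11 to 12. The plants were approximately 40 days old, dissection took place 4 to 8 h after dawn over several days, and the labels give approximately 100 nectaries in each pooled sample, fewer than the study's methods state, taken from a different set of plants. The values are read counts per contig that the authors normalized by the upper quartile and rounded, called normalized counts below. Approximately 11.7 to 16.9 M reads assigned to the listed contigs lay behind each sample, as estimated from the spacing of the low values. This is fewer than the study reports as sequenced. Ribosomal RNA made up 12.6% to 62.9% of the normalized counts. Outside ribosomal RNA and organelles, mature replicate 2 was the shallowest sample (approximately 4.32 M reads). CRABS CLAW (Ta06676), a YABBY factor required for nectary formation, was abundant in all samples, at 33822 ± 4457 normalized counts in the mature and 21878 ± 4014 in the immature samples (mean ± SD, n = 3 per stage).

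The stages were compared for every locus with limma on log2(normalized counts + 1), using the 11780 loci that averaged 100 or more in at least 1 stage. Fold changes are mature over immature on this scale, and a locus was called higher or lower in mature nectaries at a Benjamini-Hochberg adjusted p under 0.05. Most tested loci differed between the stages, with 28.4% of them called higher and 35.9% lower, 64.3% in all. The median log2 fold change over all tested loci was −0.09. In a pool of whole nectaries, a change in the share of cells that express a gene and a change in the transcript level per cell cannot be told apart.

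The MYB loci did not change together. By the ratio of means, MYB57 rose in mature nectaries by 6.25-fold, Ta09766 fell to 0.536 of its immature level, and MYB21 differed by 1.31-fold without passing the test. Of the 2 members, MYB57 was called higher and MYB21 was not called, beside 28.4% of all loci called higher and 64.3% called in either direction. None of the 3 loci overlapped between the stages, which was also true of 70.1% of all tested loci.

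MYB57 (Ta09975) stood at 4258, 5606 and 5250 normalized counts in mature replicates 1 to 3, against 755, 797 and 868 in immature replicates 1 to 3. Every mature sample was thus far above every immature sample, and mature replicate 1 was the lowest of its stage. The means were 5038 ± 699 in the mature and 807 ± 57.1 in the immature samples (mean ± SD, n = 3 per stage). The log2 fold change was 2.63 (SE 0.16, 95% confidence interval 2.27 to 2.99, limma adjusted p = 7.12e-06), and 3.45% of the tested loci had a higher log2 fold change. With 3 samples against 3, the two-sided exact permutation test gave p = 0.1 for each of the 3 loci, the smallest it allows. By the estimate of depth, each of the 6 samples held at least 684 reads of MYB57.

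MYB21 (Ta06372), the best studied of these factors, had 5814, 5670 and 6008 normalized counts in the mature samples, against 3678, 5174 and 4512 in the immature samples. The immature samples were lower and also more scattered, with immature replicate 1 the lowest. The coefficient of variation was 2.91% in mature and 16.8% in immature nectaries. The means were 5831 ± 170 in the mature and 4455 ± 750 in the immature samples (mean ± SD, n = 3 per stage), a log2 fold change of 0.40 (SE 0.18, 95% confidence interval −0.00186 to 0.81, limma adjusted p = 0.0747). The call depended on the scaling: with median ratios in place of the upper quartile the log2 fold change was 0.50 at a limma adjusted p of 0.0307. Without immature replicate 1 it was 0.27 at a limma adjusted p of 0.284.

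Ta09766, the locus listed as MYB24, had 4474, 3576 and 3881 normalized counts in the mature samples, against 7173, 7957 and 7124 in the immature samples. It moved in the direction opposite to MYB57, and the highest mature sample was below the lowest immature sample. The means were 3977 ± 457 in the mature and 7418 ± 467 in the immature samples (mean ± SD, n = 3 per stage), a log2 fold change of −0.90 (SE 0.16, limma adjusted p = 0.00156). This locus thus fell in mature nectaries, where 35.9% of all loci were called lower.

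**Figure D1:**
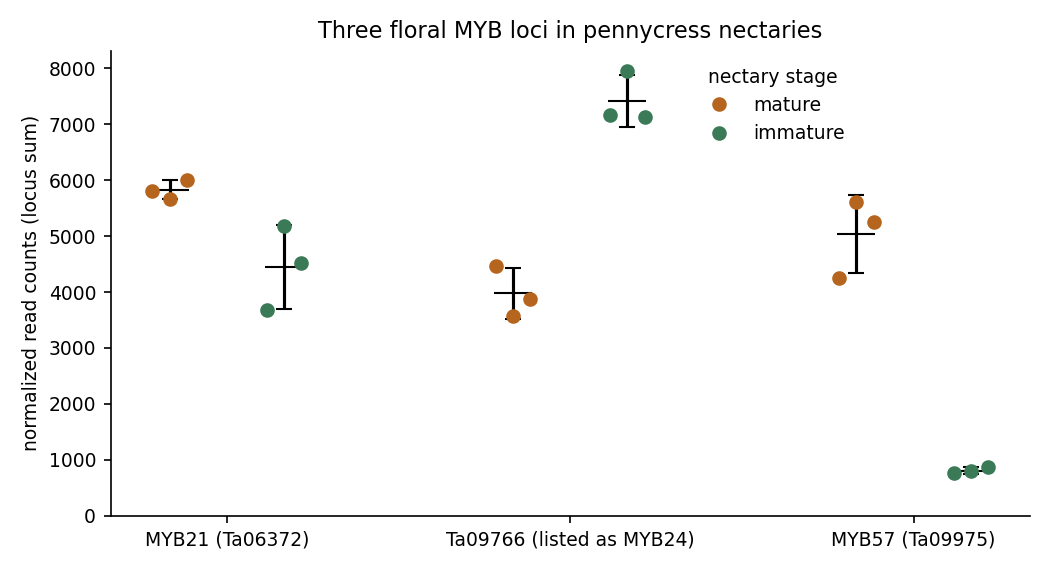
Normalized read counts (vertical axis, summed over the contigs of a locus) of MYB21, Ta09766 and MYB57 in each sample, with the 3 mature samples left of the 3 immature samples, a horizontal bar at the mean and error bars of 1 SD. MYB57 lies between 4258 and 5606 in mature nectaries and between 755 and 868 in immature nectaries, Ta09766 is lower in all mature samples, and the mature samples of MYB21 lie above a wider range of immature values.

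The ratios between the loci within a sample are the same whichever single factor is used to scale that sample. Contig lengths are not in the table, so a ratio itself is not a ratio of levels per length, and only its change between stages is read. For Ta09766, whose contigs took different shares of its counts in the stages, this change also depends on which contigs are counted. MYB57 over MYB21 had a log2 ratio of −0.45, −0.02 and −0.19 in the mature samples, against −2.28, −2.70 and −2.38 in the immature samples, a difference of 2.23. MYB57 thus gained on MYB21 in every mature sample. MYB57 over Ta09766 averaged 0.34 ± 0.37 in the mature and −3.20 ± 0.15 in the immature samples (mean ± SD, n = 3 per stage), a difference of 3.54, or of 3.97 between the most abundant contigs. MYB21 over Ta09766 averaged 0.56 ± 0.16 in the mature and −0.75 ± 0.19 in the immature samples (mean ± SD, n = 3 per stage), a difference of 1.31, or of 1.73 between the most abundant contigs. Both MYB57 and MYB21 thus gained on Ta09766 as summed and on its most abundant contig. MYB21 did not gain on contigs 3, 4 and 5 of Ta09766, described below. These rose by 1.69, 0.64 and 2.59 on the log2 scale, against 0.39 for the most abundant contig of MYB21. For each of the 3 ratios the stages did not overlap, and the two-sided exact permutation test gave p = 0.1, also after Benjamini-Hochberg adjustment over the 3 ratios.

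**Figure D2:**
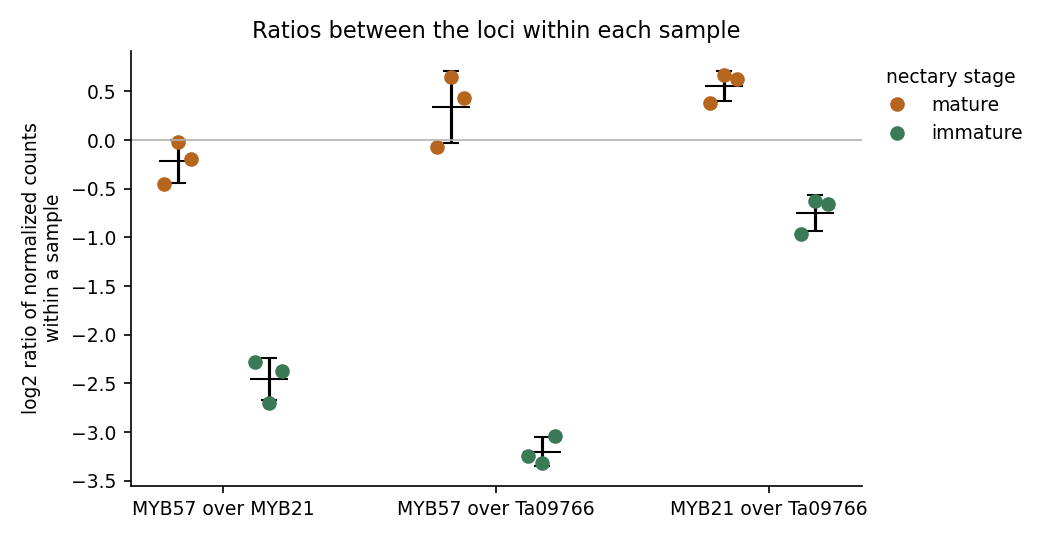
Log2 ratio of normalized counts between pairs of the loci within each sample (vertical axis), mature samples left of immature samples, with the mean and error bars of 1 SD (n = 3). The stages are apart in all 3 ratios, by 2.23 for MYB57 over MYB21, 3.54 for MYB57 over Ta09766 and 1.31 for MYB21 over Ta09766.

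The contigs behind the loci differed in how uniformly they moved. MYB57 was built from 3 contigs of a single assembly component, and the most abundant held 91.5% of its mature and 91.4% of its immature counts. These contigs had log2 fold changes of 2.63, 2.71 and 2.41, and all 3 were called higher in a limma fit over contigs (adjusted p = 1.68e-05, 4.22e-05 and 0.000248), where 27.5% of all contigs were called higher. The MYB57 change was thus the same in kind in each of its contigs. MYB21 had 2 contigs, and the first of them held 96.5% of the mature and 97.1% of the immature counts. Their log2 fold changes were 0.39 and 0.66, and neither passed the test (limma adjusted p = 0.089 and 0.0804).

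Ta09766 had 5 contigs that moved in different directions. Contig 1, from the assembly of immature reads, had 2843, 2509 and 2461 normalized counts in mature samples and 6473, 7109 and 6212 in immature samples, and it alone was called lower (log2 fold change −1.34, limma adjusted p = 0.00022). It held 65.5% of the mature and 89.0% of the immature counts of the locus, so that the fall of Ta09766 is the fall of this contig. Contig 2 was level between the stages, with a log2 fold change of −0.017 (limma adjusted p = 0.955). Contig 3 was called higher, with 484, 243 and 385 normalized counts in mature samples and 93, 104 and 137 in immature samples (log2 fold change 1.69, limma adjusted p = 0.00124). Contig 4 rose by 0.64 (limma adjusted p = 0.0233). Contig 5, matched to AT3G27809, rose by 6.13-fold, with 271, 228 and 236 normalized counts in mature samples and 34, 44 and 42 in immature samples (log2 fold change 2.59, limma adjusted p = 3.45e-05).

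Contig 3 of Ta09766 also came from the same component of the mature assembly as both contigs of MYB21, a component being a group of contigs that the assembler joined through shared sequence. The other 4 contigs of Ta09766 shared a component of the immature assembly with 1 contig of a further locus, Ta06947 (AT4G22820). Reads were assigned to contigs by sequence match, so reads of near-identical stretches could be split between MYB21 and Ta09766, and their separate values are uncertain to that extent. With the contigs of both loci summed, an alternative chosen after the data were seen, the log2 fold change was −0.27 (limma adjusted p = 0.207). MYB57 shared no component with either locus.

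**Figure D3:**
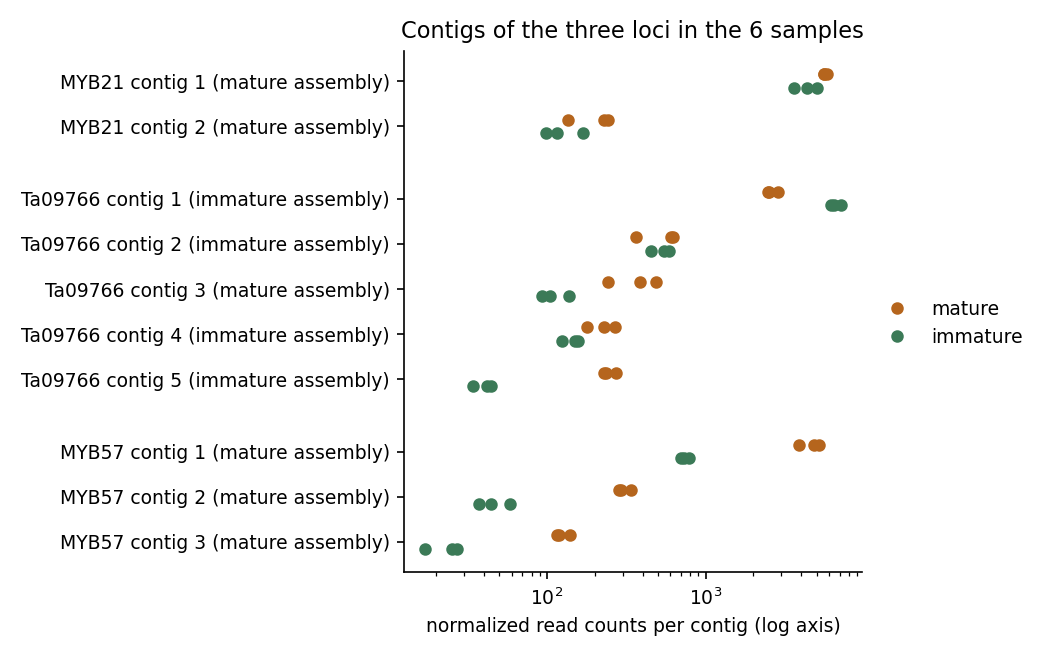
Normalized read counts per contig (horizontal logarithmic axis) for the 2 contigs of MYB21, the 5 of Ta09766 and the 3 of MYB57, with the stage of the assembly each contig came from. Points are samples, with the mature samples above the immature samples in each row, and all 3 contigs of MYB57 are shifted to higher counts in mature nectaries, whereas contig 1 of Ta09766 is shifted to lower and its contigs 3 to 5 to higher counts.

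Set against CRABS CLAW within each sample, a comparison chosen after the data were seen, MYB57 had 114, 195 and 148 counts per 1000 counts of CRABS CLAW in mature samples and 35.6, 43.7 and 33.1 in immature samples. It stayed higher in mature nectaries on this scale, by 2.00 on the log2 scale. Ta09766 had 120, 124 and 110 counts per 1000 in mature samples and 339, 436 and 272 in immature samples, a difference of −1.54. For both loci the stages did not overlap, with a two-sided exact permutation p of 0.1. MYB21 had 156, 197 and 170 counts per 1000 in mature samples and 174, 283 and 172 in immature samples, which overlapped (difference −0.23, two-sided exact permutation p = 0.5). The sign of the MYB21 difference therefore turned when CRABS CLAW was the yardstick. CRABS CLAW itself differed by 0.64 (limma adjusted p = 0.049), a call lost when any sample other than immature replicate 3 was left out (limma adjusted p = 0.0545 to 0.202). It was also lost with a pseudocount of 0.5, without a filter, with totals, with the most abundant contig or with the replicate block (limma adjusted p = 0.05 to 0.0617) and under quantile normalization (log2 fold change 0.02, limma adjusted p = 0.917).

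The loci most like each MYB locus in pattern were sought among the 2415 loci that averaged 1000 or more in at least 1 stage. Likeness was the root mean square difference between log2 profiles over the 6 samples, each centred on its own mean. MYB57 was closest to Ta15736 (AT5G37790, a protein kinase), at a difference of 0.0835, with 2155 ± 483 normalized counts in the mature and 349 ± 21.5 in the immature samples (mean ± SD, n = 3 per stage). Next came Ta07286 (AT2G40890, the cytochrome P450 CYP98A3 of phenylpropanoid synthesis) at 0.0846 and Ta15820 (AT1G23040, a hydroxyproline-rich glycoprotein) at 0.136. Within 0.2 lay 22 loci for MYB57, 107 for MYB21 and 134 for Ta09766, and within 0.1 lay 2, 0 and 13, so the order of MYB57 and MYB21 depended on this limit. MYB21 was closest to Ta07438 (AT1G09470, 0.131), Ta05491 (AT3G05090, a WD40 repeat protein, 0.136) and Ta06316 (AT1G55520, the TATA-binding protein TBP2, 0.14). Ta09766 was closest to Ta11170 (AT5G64400, 0.0518), Ta23793 (AT3G53020, a ribosomal protein of the L24e family, 0.0764) and Ta09026 (AT5G26880, AGAMOUS-like 26, 0.0773).

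Among the loci annotated as myb domain proteins, 25 were in the table and 24 were tested, of which 14 were called higher and 6 lower, beside 28.4% and 35.9% of all loci. MYB57 had the third highest log2 fold change of these, after MYB101 (5.33) and MYB97 (4.92), which in Arabidopsis act in pollen tubes and were on the list of pollen markers. MYB4, a repressor of phenylpropanoid genes and the only tested locus of the list of other MYB factors of stamens and flowers, rose to 1083 ± 207 in mature nectaries, against 451 ± 60.0 in immature nectaries (mean ± SD, n = 3 per stage, log2 fold change 1.25, limma adjusted p = 0.000429).

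Genes for the hormone that induces these factors in Arabidopsis were called lower more often than higher in mature nectaries, where MYB57 was high. Of 14 tested loci for jasmonate synthesis, 8 were called lower, 4 higher and 2 were not called, beside 35.9% of all loci called lower and 28.4% higher, with a median log2 fold change of −1.57 beside −0.09 over all loci. The 4 called higher were JAR1, KAT2 (log2 fold change 1.37, limma adjusted p = 0.00199), PXA1 (0.76, limma adjusted p = 0.0115) and ACX1 (0.75, limma adjusted p = 0.0329). Without immature replicate 1 or 2, 2 rather than 4 were called higher. ACX1, whose stages overlapped, also lost its call without mature replicate 1 or 3 (limma adjusted p = 0.0849 and 0.0977). PXA1 also lost its call with the most abundant contig (limma adjusted p = 0.124). The summed counts of the list were 51802, 39086 and 50171 in the mature samples. They overlapped those of the immature samples, at 34973, 38548 and 50744. KAT2 alone gave 31174, 22905 and 30040 of the mature and 9188, 9324 and 14519 of the immature counts. The sum therefore does not stand for the loci that fell. FAD3, a desaturase that makes linolenic acid, fell to 166 ± 7.57 in mature nectaries, against 1125 ± 245 in immature nectaries (mean ± SD, n = 3 per stage, limma adjusted p = 1.11e-05). FAD8, a desaturase of the same step in plastids, had 14, 10 and 18 normalized counts in the mature samples, against 233, 249 and 276 in the immature samples (limma adjusted p = 1.13e-05). LOX2, a lipoxygenase of the first committed step, fell to 415 ± 178 in mature nectaries, against 6907 ± 1888 in immature nectaries (mean ± SD, n = 3 per stage, log2 fold change −4.11, limma adjusted p = 2.62e-05). OPR3, the peroxisomal reductase needed for jasmonate in stamens, fell by 1.87 on the log2 scale (limma adjusted p = 0.000638). Allene oxide synthase AOS stood at 628 ± 96.5 in the mature and 516 ± 94.0 in the immature samples (mean ± SD, n = 3 per stage) and was not called (limma adjusted p = 0.193), although it passed with median ratios (limma adjusted p = 0.0466). JAR1, which joins jasmonate to isoleucine to give the active hormone, rose to 418 ± 43.2 in mature nectaries, against 145 ± 18.9 in immature nectaries (mean ± SD, n = 3 per stage, log2 fold change 1.53, limma adjusted p = 7.89e-05).

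Of 7 tested loci for jasmonate turnover and methylation, 2 were called higher, 4 lower and 1 was not called. The higher count was near the 28.4% of all loci called higher, and 35.9% of all loci were called lower. JMT, the methyltransferase that makes methyl jasmonate, rose to 145549 ± 24188 in mature nectaries, against 30839 ± 9047 in immature nectaries (mean ± SD, n = 3 per stage, log2 fold change 2.26, limma adjusted p = 0.000456). Its direction was that of MYB57. The jasmonate oxygenases, which hydroxylate and so inactivate jasmonate, moved both ways, with JOX2 and JOX3 lower by log2 fold changes of −1.99 and −5.14 (limma adjusted p = 5.66e-05 and 0.000224) and JOX4 higher by 0.90 (limma adjusted p = 0.000651).

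The list of the receptor, the repressors and their corepressors, which also held MED25, had 19 tested loci. Of these, 7 were called lower, 2 higher and 10 were not called (median log2 fold change −0.30). Over the whole list the lower calls were near the 35.9% of all loci, but all 7 were JAZ repressors. They were JAZ1, JAZ5, JAZ6, JAZ8 and JAZ13, given below, and JAZ3 and JAZ9 (log2 fold changes −0.84 and −0.57, limma adjusted p = 0.0117 and 0.0432). The JAZ9 call was lost without mature replicate 2 or 3, without immature replicate 2 or 3 or with the most abundant contig (limma adjusted p = 0.076 to 0.116). The 2 called higher were the repressor JAZ12 (log2 fold change 0.45, limma adjusted p = 0.0208) and the corepressor TPR4 (0.81, limma adjusted p = 0.0158). The number called higher was 1 without mature replicate 1 or 3 and 0 without immature replicate 1 or 2. JAZ2 and JAZ10 were not called (limma adjusted p = 0.324 and 0.159). JAZ10 passed as lower when rescaled to totals or without mature replicate 1 (limma adjusted p = 0.0288 in each). COI1, the receptor subunit, had 355, 282 and 364 normalized counts in the mature samples, against 290, 300 and 310 in the immature samples, and was not called (limma adjusted p = 0.402), with a sign that turned when rescaled to totals. The JAZ repressors reported in Arabidopsis to bind MYB21 and MYB24 were lower where found. JAZ8 had 17, 8 and 66 normalized counts in the mature samples, against 132, 273 and 131 in the immature samples (log2 fold change −2.93, limma adjusted p = 0.00576). JAZ1 had 775, 525 and 1213 in the mature samples, against 1086, 1520 and 1485 in the immature samples, with an overlap between the stages. Its call was marginal (log2 fold change −0.77, limma adjusted p = 0.0475) and was lost without mature replicate 1 or 2 or immature replicate 2 or 3 (limma adjusted p = 0.0811, 0.115, 0.125 and 0.128). JAZ13, JAZ6 and JAZ5 had the smallest adjusted p of the list, with log2 fold changes of −7.12, −1.91 and −2.42. JAZ13, a further JAZ repressor, had 3, 4 and 8 normalized counts in the mature samples, against 638, 968 and 779 in the immature samples (limma adjusted p = 4.01e-06).

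Of the bHLH factors of jasmonate signalling, 3 of 6 tested loci were called higher, 2 lower and 1 was not called (median log2 fold change 0.08). The lower count was near the 35.9% of all loci called lower, and 28.4% of all loci were called higher. The number called higher was 1 without immature replicate 1 or 2, and the number called lower was 1 without mature replicate 2 or 3 and 0 without immature replicate 2 or 3. MYC2, a partner of MYB21 and MYB24 in Arabidopsis, had 1113 ± 292 normalized counts in the mature and 1398 ± 299 in the immature samples (mean ± SD, n = 3 per stage) and was not called (limma adjusted p = 0.237), although it passed as lower when rescaled to totals (log2 fold change −0.49, limma adjusted p = 0.042). MYC3 differed by 0.50 on the log2 scale (limma adjusted p = 0.0262), and the call was lost without mature replicate 1 or immature replicate 1 or 2 (limma adjusted p = 0.0646, 0.0894 and 0.102). EGL3, known from trichome and anthocyanin control, was called higher with a log2 fold change of 1.10 (limma adjusted p = 0.0031). The JAM factors, which repress jasmonate responses, split, with JAM3 at 0.77 and JAM1 and JAM2 at −0.75 and −0.55 (limma adjusted p = 0.0175, 0.0194 and 0.0272). The JAM2 call was lost without mature replicate 2 or 3, without immature replicate 2 or 3 or with quantile normalization (limma adjusted p = 0.0519 to 0.103). The JAM3 call was lost without mature replicate 3 or immature replicate 1 or 2 and the JAM1 call without immature replicate 2 or 3 or with quantile normalization (limma adjusted p up to 0.0747).

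Upstream of jasmonate, 4 of 15 tested loci for auxin and gibberellin signalling were called higher, 5 lower and 6 were not called (median log2 fold change −0.19). Both counts were near the shares over all loci, 28.4% called higher and 35.9% lower. ARF6 fell by 0.75 on the log2 scale, to 646 ± 119 in mature nectaries, against 1073 ± 45.5 in immature nectaries (mean ± SD, n = 3 per stage, limma adjusted p = 0.0043). ARF8 was matched by a pair of loci, Ta19409, which was not called (log2 fold change −0.19, limma adjusted p = 0.413) but passed when rescaled to totals (limma adjusted p = 0.0485), and Ta26123, whose call was marginal (log2 fold change −0.66, limma adjusted p = 0.0499) and was lost when any sample other than mature replicate 1 was left out (limma adjusted p = 0.0834 to 0.138). The DELLA repressors of gibberellin signalling did not move alike. RGL3 and GAI fell, with log2 fold changes of −3.90 and −2.56 (limma adjusted p = 1.11e-05 and 0.000119), whereas RGA, RGL1 and RGL2, the members that act in Arabidopsis stamens, were not called (log2 fold changes −0.15, 0.50 and −0.20, limma adjusted p = 0.438, 0.0686 and 0.55). RGL1 passed with median ratios (limma adjusted p = 0.0112), with quantile normalization (limma adjusted p = 0.0192), without mature replicate 2 (limma adjusted p = 0.0388) and without immature replicate 3 (limma adjusted p = 0.0165). The gibberellin receptor GID1B rose to 428 ± 10.7 in mature nectaries, against 148 ± 11.1 in immature nectaries, and GA2ox6, an enzyme that inactivates gibberellin, to 126 ± 36.6, against 10.3 ± 6.66 (mean ± SD, n = 3 per stage, limma adjusted p = 3.15e-05 and 0.000795).

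Among classes of genes that MYB factors of this subgroup regulate in flowers, flavonol synthesis and terpene synthesis were examined. Of 6 tested flavonol loci, 5 were called lower and 1 higher, with a median log2 fold change of −5.39. Over all loci, 35.9% were called lower and 28.4% higher. FLS1, a flavonol synthase, had 38, 37 and 79 normalized counts in the mature samples, against 1103, 962 and 1661 in the immature samples (log2 fold change −4.62, limma adjusted p = 1.35e-05). Chalcone synthase CHS, the entry enzyme of flavonoid synthesis, fell to 37.0 ± 15.6 in mature nectaries, against 3736 ± 1647 in immature nectaries (mean ± SD, n = 3 per stage, limma adjusted p = 7.37e-06). The hydroxylase F3'H and the flavonol synthase homolog FLS3 fell by 6.05 and 4.72 on the log2 scale (limma adjusted p = 3.94e-06 and 8.40e-06). Also called lower was the MYB factor MYB111, with 10, 2 and 0 normalized counts in the mature samples, against 264, 205 and 208 in the immature samples (limma adjusted p = 0.000318). UGT78D2, the 1 locus called higher, had a log2 fold change of 2.37 (limma adjusted p = 3.23e-05). The direction of the 5 loci called lower was opposite to that of MYB57, and the part of either MYB factor in it was not tested. The only terpene synthase of the list that was found, TPS24, rose with MYB57, at 761, 1039 and 1167 normalized counts in the mature samples and 61, 69 and 58 in the immature samples (log2 fold change 3.94, limma adjusted p = 3.49e-06).

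**Figure D4:**
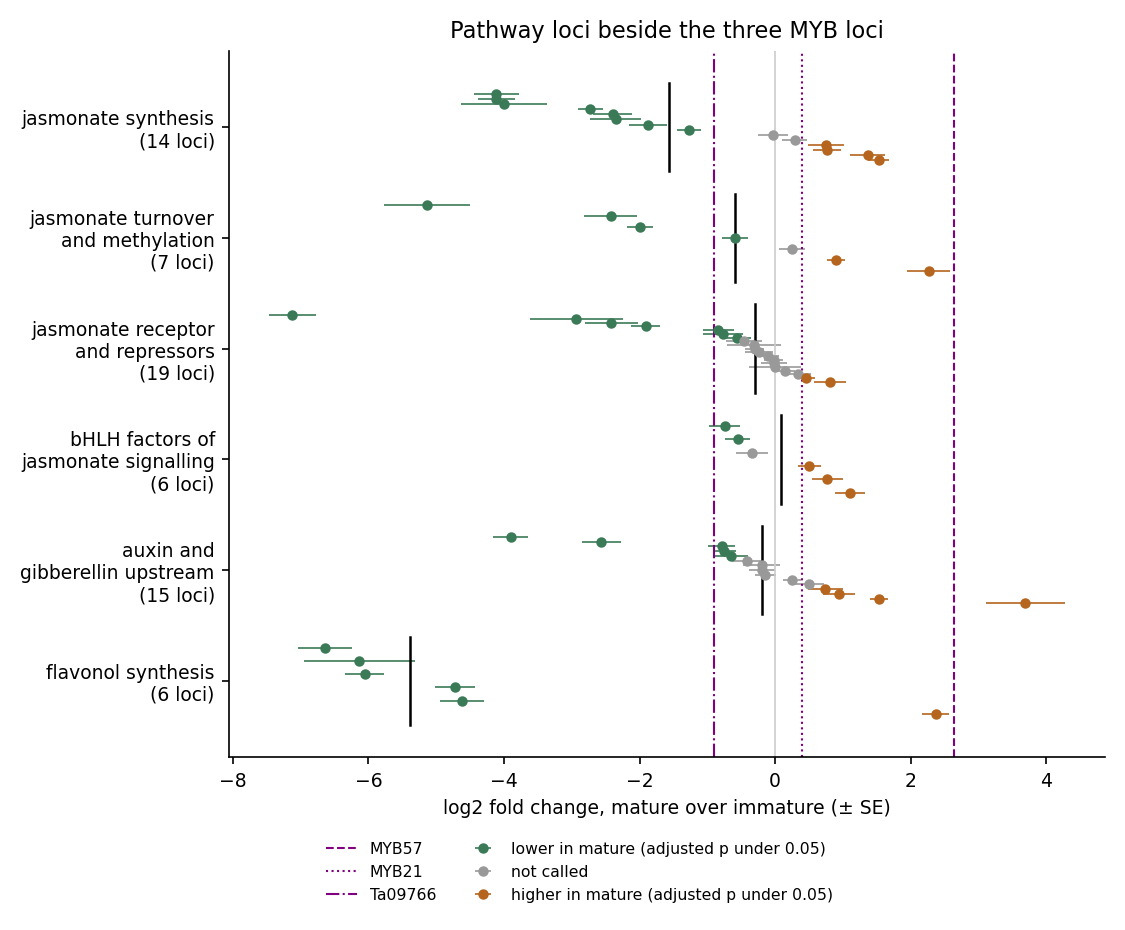
Log2 fold change, mature over immature nectaries, with its standard error (horizontal axis) for each tested locus of 6 lists around the MYB loci, coloured by call, with black bars at the median of each list and vertical lines at the values of MYB57 (2.63), MYB21 (0.40) and Ta09766 (−0.90). Jasmonate synthesis has a median of −1.57 and flavonol synthesis of −5.39, while the repressor, bHLH and auxin and gibberellin lists have medians of −0.30, 0.08 and −0.19.

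Most of the pollen and phloem markers that were found differed between the stages. The calls counted in this paragraph stand beside 28.4% of all loci called higher and 35.9% called lower. Of 24 pollen markers 12 were found, and 11 of these were called higher in mature nectaries and 0 lower. Their summed level was 29030, 3461 and 9309 normalized counts in mature replicates 1 to 3 and 389, 571 and 385 in immature replicates 1 to 3. MYB57 was lowest in mature replicate 1, where the pollen markers were highest, and without that sample its log2 fold change was 2.75 (limma adjusted p = 7.27e-06). Phloem markers, of which 4 of 6 were found and 3 were called lower, summed to 153, 143 and 184 in the mature samples and 585, 1234 and 708 in the immature samples, in the direction of Ta09766, and their part in that result was not tested. Stomata markers, with 2 of 9 found, of which 0 were called higher and 1 lower, summed to 622, 566 and 681 in the mature samples and 655, 684 and 812 in the immature samples. The part of these cell types in the values of MYB57, of MYB21 and of the pathway lists was not tested. The table held 0 of 14 markers of tapetum and anthers and 0 of 7 of carpels and ovules. Of 6 nectary genes tested, 3 were called higher, 1 lower and 2 were not called. Apart from CRABS CLAW, the sugar transporter SWEET9 rose by 22.9-fold and the cell wall invertase CWINV4 by 3.22-fold (limma adjusted p = 1.55e-05 and 0.00167), while the sucrose-phosphate synthase SPS1F fell by 1.15 on the log2 scale (limma adjusted p = 0.00396). PIN6 and SPS2F were not called, at log2 fold changes of −0.70 and −0.47.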

How the data were processed

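The study collected nectary RNA of pennycress cultivar MN108 at 2 stages, with 3 pooled samples of each. Illumina reads of 50 bp were assembled by the authors with Trinity for each stage, and a pennycress transcriptome published before was merged in. Reads were then assigned to contigs by blastn (E-value cutoff 1e-05) and counted. The deposited scores are these read counts after upper-quartile normalization by the authors, rounded to whole numbers, so no count model was applied. Contigs and loci bear the authors' best Arabidopsis matches. The sources used here do not give the draft genome's version. Deposited columns with the authors' means, ratios, calls and DESeq p-values were not used, nor was a list of loci outside the predicted gene set. Column names matched sample titles for all 6 samples.

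Locus values are sums of contig values, leaving out the 617 contigs without a locus. Of 12335 loci, 11780 averaged 100 or more in at least 1 stage. For these, log2(sum + 1) was tested in limma 3.58.1 (R 4.3.3), letting the prior variance follow the mean level, with Benjamini-Hochberg adjustment over all of them. This scale understates the fold changes of low loci. Single values were tested with two-sided exact permutation tests over samples. Python 3.11.15 with pandas 2.3.3 and numpy 2.4.6 served for tables, and matplotlib 3.10.9 for figures.

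The members, the gene lists and the tests were chosen with earlier results of these data known. The loci named in the text are the 2 members and Ta09766, up to 4 called loci of each pathway list with the smallest adjusted p, the reported Arabidopsis partners and upstream factors of the members whatever their result, and the 3 loci nearest to each in pattern. JAZ11, MYC4, MYC5, DAD1, TPS11, TPS21 and MYB108 were on that list of partners and targets and had no locus matched to them in the table. Further loci of the jasmonate and flavonol lists were named after the data were seen. The depth was estimated from the spacing of low values in each sample. Counting error alone is covered by this estimate, and the labels give the replicates as pools from different sets of plants.

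Alternatives were a pseudocount of 0.5 or 10, a filter at 500 or none, rescaling by median ratios, by totals without ribosomal RNA and organelles or by quantiles, using the top contig instead of the sum, a constant prior variance or a robust one in limma, a replicate block, voom weights from the estimated reads, other thresholds, and leaving out each sample in turn. The fits of single contigs, the sum of MYB21 with Ta09766 and the values relative to CRABS CLAW were chosen after the data were seen. The scripts were tested on simulated data with known changes.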

Additional observations from a re-analysis of the deposited data

How the results depend on the processing

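MYB57 was called higher under every alternative on locus sums and single contigs, with log2 fold changes of 2.55 to 2.75 when 1 sample was left out, and it was 2.00 relative to CRABS CLAW. Ta09766 was called lower in the same alternatives on locus sums (−0.99 to −0.83 when 1 sample was left out), except that its −0.90 missed a threshold of a ratio below 0.5. It was −1.54 relative to CRABS CLAW, −0.27 with the contigs of MYB21 added, −0.017 for its contig 2, and 1.69, 0.64 and 2.59 for its contigs 3, 4 and 5. MYB21 was called only with median ratios (0.50). It was −0.23 relative to CRABS CLAW and 0.27 to 0.52 when 1 sample was left out (limma adjusted p = 0.0687 to 0.284).

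The ratios of pairs kept their direction when 1 sample was left out, at 2.11 to 2.35 for MYB57 over MYB21, 3.38 to 3.74 for MYB57 over Ta09766 and 1.198 to 1.395 for MYB21 over Ta09766. The median of all loci was −0.09 as deposited, 0.02 with median ratios, −0.26 with totals and 0.04 with quantiles. Relative to that median, MYB21 stood at 0.49, 0.48, 0.51 and 0.26, Ta09766 at −0.81, −0.83, −0.80 and −1.07, and MYB57 at 2.72, 2.71, 2.74 and 2.52.

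Over all loci, 3348 were called higher and 4225 lower (7573 in all). A filter at 500 gave 1856 higher and 1566 lower (3422 in all), with fewer loci tested, and the added 2-fold threshold 1629 and 2715 (4344 in all). Without 1 sample the counts were 2729 to 3779 higher, 3596 to 4532 lower and 6365 to 7774 in all. Deviations from the stage means of same-numbered samples correlated at −0.07, 0.01 and 0.20, against −0.18 to 0.19 for differently numbered samples. A pairing by replicate number was thus not seen, but 3 samples per stage cannot exclude it. A replicate block gave 3454 higher and 4320 lower, and MYB21 stayed at 0.40 (limma adjusted p = 0.0844), Ta09766 at −0.90 (0.0035) and MYB57 at 2.63 (2.08e-05). Under the block the nectary genes were 2 higher, beside 3, with CRABS CLAW lost (limma adjusted p = 0.0592), and 2 lower, beside 1, with PIN6 gained (0.048).

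Of the list counts, a filter at 500 left 0 bHLH factors lower, 1 auxin and gibberellin locus higher and 0 flavonol loci higher. The loci missing from these counts fell below that filter and were not tested there. Quantiles left 0 bHLH factors lower, and totals gave 2 nectary genes lower. A threshold of 0.01 gave 2 synthesis loci higher, 0 receptor and repressor loci higher and 4 lower, and 1 bHLH factor higher and 0 lower. The added fold threshold gave 2 synthesis loci higher, 1 turnover locus higher, 0 receptor and repressor loci higher and 4 lower, 1 bHLH factor higher and 0 lower, and 2 auxin and gibberellin loci higher and 2 lower. Without 1 sample, synthesis had 2 to 4 higher and 8 lower, turnover 2 higher and 3 to 4 lower, receptor and repressors 0 to 3 higher and 5 to 7 lower, bHLH factors 1 to 3 higher and 0 to 2 lower, auxin and gibberellin 3 to 4 higher and 4 to 6 lower, flavonol loci 1 higher and 5 lower, and nectary genes 2 to 3 higher and 1 to 2 lower. Over the pathway loci and settings together, 1336 values kept direction and call, 98 lost the call, 22 gained it and 20, of loci not called either way, changed sign. The sign changes were LOX6 at 0.061, NINJA at 0.071 and TPL (Ta08952) at 0.077 with median ratios, COI1 at −0.0078 and MED25 at −0.15 with totals, and TPL (Ta08952) at 0.031 with its top contig. Without 1 sample, LOX6 was −0.17 to 0.16, NINJA −0.087 to 0.064, TPL −0.55 to 0.16 (Ta03691) and −0.14 to 0.16 (Ta08952), TPR2 −0.19 to 0.043, MED25 −0.23 to 0.46, ARF8 (Ta19409) −0.31 to 0.012 and SPS2F −0.77 to 0.0042.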
